A study of Mus musculus with 12 samples.

Results

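Cytosolic ribosomal protein genes encode the proteins of the 2 subunits of the ribosome that translates nuclear messenger RNA. They were taken here by name: every gene whose symbol starts with Rpl or Rps and a number, together with Rplp0, Rplp1, Rplp2 and Rpsa, leaving out named pseudogenes and the Rps6k kinases, with a mean of at least 50 normalised counts over the 12 samples. This gave 77 genes of 23134 in the table. Each sample was total bone marrow of C57BL/6 mice that had received Vk12653 cells, a transplantable line of the Vk*MYC mouse model of myeloma, into a vein. The 3 untreated samples, called day 0, came from marrow 10 days after that injection. The other groups of 3 samples were taken after 4, 11 and 18 days of the CD137 agonist antibody 3H3, given into the peritoneum at 10 µg per dose with 2 doses a week, and these days are 14, 21 and 28 days after the myeloma cells. All groups carried myeloma cells, and the later groups had both more antibody and more days of myeloma, so these cannot be told apart. The labels do not say how many mice stand behind a sample, so p-values measure only the spread between these samples.

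A ribosome holds 1 copy of most of its proteins, and cells make these proteins in matched amounts. Their messenger RNAs begin with a run of C and T called the terminal oligopyrimidine (TOP) tract, through which mTOR signalling and the protein LARP1 set how fast they are translated. In bone marrow, loss of single ribosomal protein genes is best known for failing red cell production, as in human Diamond-Blackfan anaemia, where RPS19 is a common cause. The values below are normalised counts, that is, counts of reads per gene scaled between samples, and they measure messenger RNA, not its translation. In bulk RNA, fewer cells of a type that is rich in these transcripts and less RNA per cell cannot be told apart.

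Of the 77 genes, 67 bear standard ribosomal protein names, 40 of the large and 27 of the small subunit. The other 10 are relatives that the naming rule also takes. Rpl22l1, Rps27l and Rps27rt are coding relatives of Rpl22 and Rps27, and Rps19bp1 encodes a protein that binds Rps19 and is no ribosomal protein. The GENCODE annotation calls the remaining Rpl32l, Rpl6l, Rps4l, Rps3a2, Rps3a3 and Rpl37rt processed pseudogenes, that is, copies made from spliced RNA. The genes lie on 17 chromosomes, and all 77 passed the filter on low values (10 or more in 3 or more samples). Just inside the threshold of the rule stood Rpl32l with a mean of 78.9 and Rpl6l with 144, and just outside it stood Rpl3l with 31.2, Rpl36al with 25.6, Rpl24 with 20.5 and Rpl39l with 5.08. Of those just outside, Rpl24 bears a standard name. No row bore the names Rps10, Rps14, Rps18, Rps28, Rpl10a, Rpl13a, Rpl17, Rpl35a or Rpl36, so these standard genes are missing here. Ribosomal protein genes outside the rule are not analysed here, except for a list of 2 with Rack1 below.

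Letters of the TOP kind near the annotated start were counted in part of the family. Of the 77 genes, 56 had a RefSeq promoter on GRCm38.p6. The letters CTTTC stood on the coding strand, within 25 bases before and 25 from the annotated start, in 28.6% of the 56, against 7.87% of the promoters of 27025 genes. CTTTC or CTTTT stood there in 35.7%, against 13.2% of all promoters and 10.0% of 60 mitochondrial ribosomal protein promoters. CTCTTTC, which contains CTTTC, stood in 10.7% against 0.81%. The windows below run from 30 bases before the start through the first 30 transcribed bases. They are for 3 genes that hold these letters, for Rpl35, the least abundant of the 67 standard genes, and for Rpl22 and Rpl22l1. The later results turn on that last pair. Capitals mark the unbroken run of C and T that holds CTTTC or CTTTT, and the last pair has no such letters in this window. The Rpl22l1 window does hold another run of C and T, ttctcttccc, beside its annotated start. Rpl22 has 2 listed promoters, and the window shows 1 of them.
Rps6, chr4:86857338-86857397, minus strand: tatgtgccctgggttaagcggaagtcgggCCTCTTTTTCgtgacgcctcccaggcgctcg
Rpl28, chr7:4792935-4792994, plus strand: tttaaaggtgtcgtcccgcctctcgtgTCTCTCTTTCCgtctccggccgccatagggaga
Rpl38, chr11:114668550-114668609, plus strand: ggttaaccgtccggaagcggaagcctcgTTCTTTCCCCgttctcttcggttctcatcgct
Rpl35, chr2:39005102-39005161, minus strand: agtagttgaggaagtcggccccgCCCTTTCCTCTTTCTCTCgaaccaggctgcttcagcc
Rpl22, chr4:152325696-152325755, plus strand: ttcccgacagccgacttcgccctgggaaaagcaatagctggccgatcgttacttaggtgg
Rpl22l1, chr3:28805478-28805537, plus strand: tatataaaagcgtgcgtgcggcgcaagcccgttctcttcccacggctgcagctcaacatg
The annotated start may lie some bases from the start used in marrow, so a window without the letters says only that they are not in it.

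The whole table had a normalised total of 19.16 to 20.84 M per sample. Gaps among the low values gave an estimate of assigned reads, which was 21.7 to 25.3 M in untreated marrow, 16.0 to 17.8 M at day 4, 16.8 to 24.3 M at day 11 and 18.6 to 23.6 M at day 18. Day 4 was thus the shallowest group by its mean, 16.8 M, although 1 day 11 library was shallower than 1 of day 4. Marrow markers fitted the label: 10 genes of mature neutrophils held 7.44 to 9.63% of the normalised total and 10 erythroid genes 0.0839 to 0.306%. Of 15 erythroid markers listed, only these 10 had a row, so this share leaves out part of the list. T cell genes held 0.0183 to 0.0312% in untreated samples and 0.0707 to 0.1% at day 18, and 14 of 15 were called higher than untreated marrow on that day.

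Untreated replicate 2 and day 18 replicate 3 stood apart from their groups in these genes. The 77 genes together held 3.72, 4.89 and 3.92% of the normalised total in the 3 untreated samples. They held 4.38, 4.95 and 4.56% at day 4, 4.42, 4.61 and 4.34% at day 11, and 3.78, 3.94 and 5.27% at day 18. Untreated replicate 2 lay above its group and among the day 4 samples, while day 18 replicate 3 was the highest of the 12 and the rest of day 18 was near the low untreated samples. The group means were 4.18 ± 0.63, 4.63 ± 0.29, 4.46 ± 0.14 and 4.33 ± 0.82% (SD, n = 3 each), so the differences between means were smaller than the SD of untreated or day 18 marrow.

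**Figure D1:**
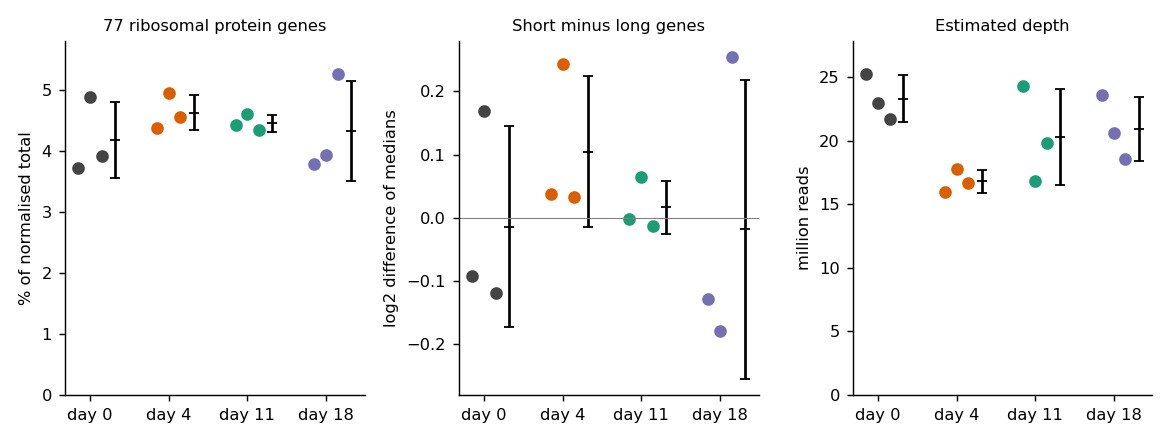
Each point is 1 library and each bar the group mean with its SD (n = 3), for the share of the normalised total held by the 77 ribosomal protein genes (%), for the difference of log2 medians between the shortest and longest 10% of other genes, and for the estimated number of reads (M). The shares overlap between all groups, and day 18 replicate 3 is highest at 5.27%.

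The 77 genes moved between libraries almost as 1 block. A single principal component held 84.8% of their variance over the 12 samples, on the log2 scale, whereas the first component of all 14883 tested genes held 27.9%. The members' median SD over samples was 0.19 in log2 units, and it was 0.06 once the median of the members was subtracted from each library. In untreated replicate 2, 74 of 77 genes lay above their own mean over the 12 samples, and in day 18 replicate 3, 76 did. In untreated replicates 1 and 3, 2 and 0 genes did so, and in day 18 replicates 1 and 2, 1 and 4 genes. The day 4 libraries had 68, 75 and 67 genes above their mean and the day 11 libraries 48, 72 and 29. Both subunits behaved alike: the median of the 40 large subunit genes was at -0.22, 0.09 and -0.20 from the genes' own means in untreated marrow, and that of the 27 small subunit genes at -0.24, 0.12 and -0.21.

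**Figure D2:**
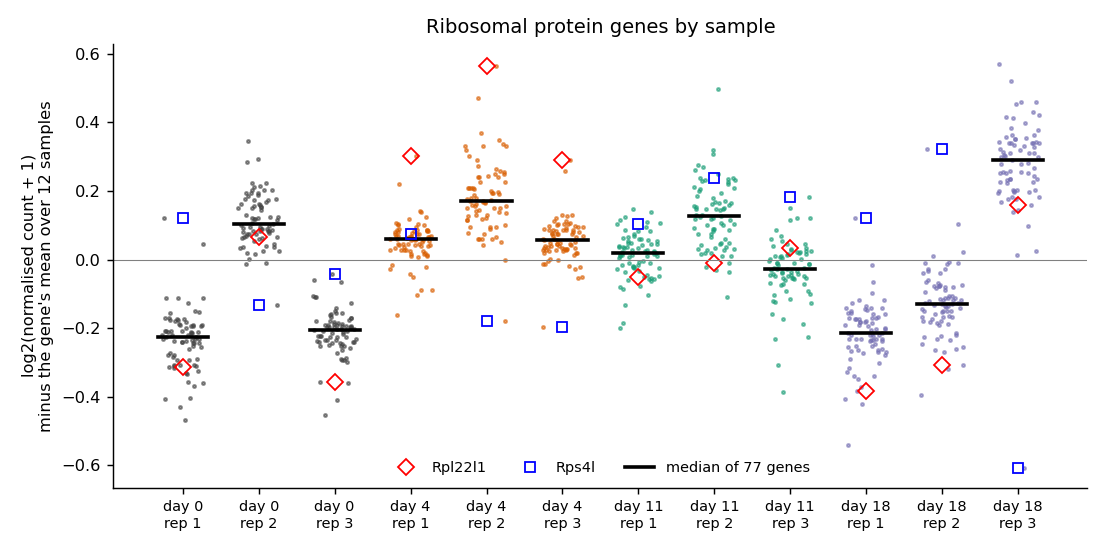
Each dot is 1 of the 77 genes in 1 library, as log2(normalised count + 1) minus that gene's mean over 12 libraries; black bars are medians, red diamonds Rpl22l1 and blue squares Rps4l. The medians of untreated replicate 2 and day 18 replicate 3 are 0.10 and 0.29, apart from the others of their groups, while Rpl22l1 is above the bulk of the genes in the day 4 libraries and Rps4l lies apart in day 18 replicate 3.

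The block moved together with a property of unrelated genes, their length. Ribosomal protein genes are short here, with a median exon length of 1684 bases against 3567 for the other tested genes. For the 14806 tested genes that are no member, the median level of the shortest 10% minus that of the longest 10% was -0.09, 0.17 and -0.12 in the untreated libraries, as log2 values relative to each gene's mean. It was 0.04, 0.24 and 0.03 at day 4, 0.00, 0.06 and -0.01 at day 11, and -0.13, -0.18 and 0.25 at day 18. The 3 libraries with the highest values of this measure, untreated replicate 2, day 4 replicate 2 and day 18 replicate 3, were among the 4 with the highest medians of the 77 genes, and the other was day 11 replicate 2 with 0.06. The 4 libraries with the lowest values had the 4 lowest medians. What part this has in the ribosomal protein values was not tested.

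**Figure D3:**
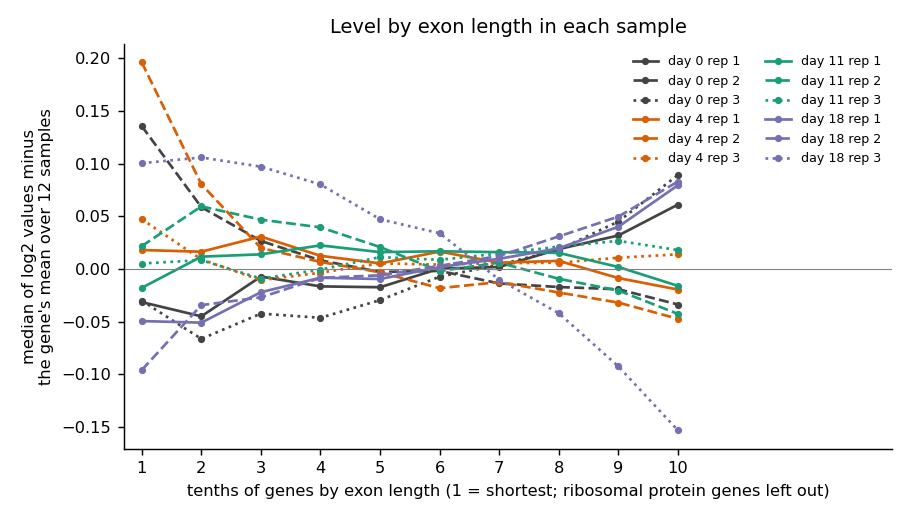
Lines join, for each library, the median level of 10 equal groups of other tested genes ordered by exon length (log2 value minus the gene's mean over 12 libraries). Untreated replicate 2 and day 18 replicate 3 slope down from short to long genes, and the other untreated and day 18 libraries slope up.

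Levels differed widely between genes. Of the 67 standard genes, 64 had a mean above 2000 normalised counts, and the exceptions were Rpl30 with 1922, Rpl23a with 1046 and Rpl35 with 457. Per kilobase of exon the 5 highest were Rplp1 with 31650 normalised counts, Rps3a1 with 22830, Rplp0 with 20930, Rpl4 with 17550 and Rps15 with 17040. Rplp0 and Rplp1 belong with Rplp2 to the stalk that calls elongation factors to the ribosome. The 5 lowest per kilobase were all annotated pseudogenes, from 166 in Rpl6l to 252 in Rps3a3. The lowest of the 67 standard genes was Rpl35 with 368. The median of the 77 was 4935 per kilobase, against 87.9 for all tested genes. Exon lengths here join all annotated transcripts of a gene, so a gene with long rare transcripts gets a low value per kilobase. Whether the low rows of Rpl30, Rpl23a and Rpl35 reflect few transcripts or the way reads were counted was not tested.

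Day 4 was compared with untreated marrow to ask what the first days of antibody brought. Of the 77 genes, 1 was called higher and 0 lower by limma at a Benjamini-Hochberg adjusted p under 0.05. Of all tested genes 4.64% were called in this comparison, 2.4% higher and 2.24% lower. The called gene was Rpl22l1. A further 7 genes had an unadjusted p under 0.05, so that 8 of 77 did, against 20.0% of all genes. The median log2 change of the 77 was 0.20, against 0.01 over all genes, and 76 of 77 were above 0, against 51.0% of all genes; since they moved as a block, their signs are not independent. Of the 77, 17 had all 3 day 4 samples above all 3 untreated ones, against 13.5% of all genes. In the other genes the groups overlapped.

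Rps6, the small subunit protein that S6 kinases phosphorylate, had the smallest adjusted p of the 67 standard genes at day 4. It had 14166, 17519 and 15261 normalised counts in untreated marrow and 18985, 19583 and 18514 at day 4. At day 11 it had 18001, 18964 and 16976, and at day 18 15217, 17757 and 22366. The day 4 samples lay above the untreated ones, and the day 18 samples overlapped with both groups. The log2 change at day 4 was 0.29 ± 0.12 (SE), with an adjusted p of 0.197 in limma.

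The stalk protein gene Rplp0 had 29695, 35062 and 30748 normalised counts untreated, 37105, 36077 and 36959 at day 4, 36130, 35343 and 34926 at day 11, and 31245, 32826 and 40650 at day 18. Its log2 changes of 0.21, 0.16 and 0.13 at the 3 days had limma adjusted p-values of 0.275, 0.425 and 0.505. Rplp1 and Rplp2, its partners, had log2 changes of 0.23 and 0.30 at day 4. Rpsa, a small subunit protein also known as a laminin receptor precursor, had 0.20 on each of days 4 and 11 and 0.17 at day 18. None of these 4 genes was called on any day. Rpl5 and Rpl11, which can bind Mdm2 when ribosome assembly fails, had 0.20 and 0.19 at day 4, with no overlap of samples and adjusted p-values of 0.338 each in limma. Rps19, the counterpart of the human anaemia gene, had 0.22, 0.17 and 0.10 at the 3 days and was not called. The largest log2 changes of standard genes at day 4 were 0.39 in Rps12 and 0.37 in Rpl41, which encodes one of the shortest known proteins. Rps12 and Rpl41 are named after their values were seen, as are Rps6, Rpl5, Rpl11, Rpl30, Rpl23a and, below, Rps2.

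At day 11 against untreated marrow 0 of the 77 genes were called by limma, where 5.32% of all genes were, and 1 had an unadjusted p under 0.05, against 19.7%. Their median log2 change was 0.15. Rpl6l, an annotated processed pseudogene of Rpl6, had the largest, 0.40 ± 0.16 (SE), with a limma adjusted p of 0.182. It had 116, 152 and 107 normalised counts untreated and 157, 178 and 155 at day 11, a difference without overlap that of the 77 only Rpl4 shared, against 14.1% of all genes.

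At day 18 against untreated marrow 0 genes were called by limma, where 9.2% of all genes were, and 0 had an unadjusted p under 0.05, against 23.2%. All 77 genes overlapped between the groups, while 13.8% of all genes stood fully higher and 12.6% fully lower. The median log2 change of the 77 was 0.08. It was -0.05 without day 18 replicate 3 and 0.20 without untreated replicate 2, so its direction rested on day 18 replicate 3. Between days 18 and 11 there were also 0 calls, against 0.00672% of all genes, and 0 of the 77 had an unadjusted p under 0.05, against 6.99%. Rps2 alone was separated there, lower at day 18 where 5.36% of all genes were, with 25068, 24898 and 26444 at day 11 and 21677, 22365 and 24648 at day 18. Between days 11 and 4 limma called 0 of the 77, against 1.68% of all genes, with 1 at an unadjusted p under 0.05 against 11.8%. Of the 77, 13 lay wholly lower at day 11, against 8.16% of all genes, and Rps4l wholly higher, against 8.8%.

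**Figure D4:**
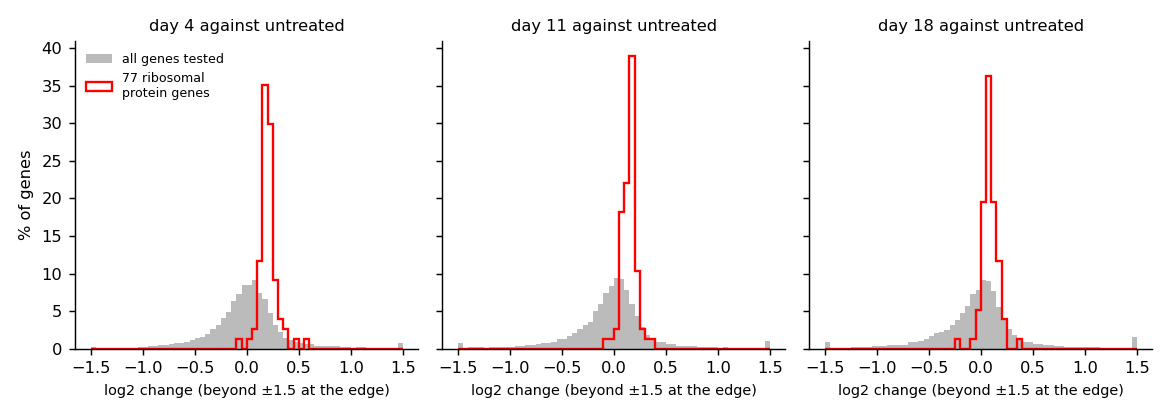
Histograms give the percentage of genes by fitted log2 change at each treated day against untreated marrow, for 14883 tested genes (grey) and the 77 ribosomal protein genes (red line); changes beyond the axis are in the edge bins. The ribosomal protein genes form a narrow peak right of 0, with medians of 0.20, 0.15 and 0.08.

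The counts of calls rested on the 2 libraries named above. Without untreated replicate 2 and day 18 replicate 3, limma called 50 of the 77 genes higher at day 4, 25 higher at day 11 and 0 at day 18 against untreated marrow. Of the 14708 genes tested in that fit, 3.58 and 3.52% were called higher on the first 2 of these days and 5.38% in either direction at day 18. It called 28 of the 77 lower at day 18 than at day 4, against 4.05% of all genes, and 1 lower at day 11 than at day 4, against 1.14%. The median log2 changes were then 0.315, 0.26 and 0.055 against untreated marrow. These libraries were picked after seeing that they stood apart in these same genes, which lowers the spread by construction, so these counts support no change. With each library's length measure as a covariate instead, 1, 2 and 1 of the 77 were called higher at the 3 days. That fit called 534, 797 and 1208 of all 14883 genes higher. The medians of the 77 were then 0.079, 0.123 and 0.089. With estimated depth in the model the medians were -0.01, 0.056 and 0.019. Estimated depth did not overlap between untreated and day 4 libraries, so depth and day cannot be told apart in that comparison.

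Rpl22l1 had the largest rise of the 77 at day 4, a log2 change of 0.59 against their median of 0.20. It was the 1 gene of the 77 called there, where 2.4% of all genes were called higher. Rpl22l1 was not called there, or at day 18 against day 4, after rescaling by the standard ribosomal protein genes. Its product is a paralogue of Rpl22, an RNA-binding protein of the large subunit that mouse alpha-beta T cells need in order to develop, and in mice Rpl22 is known to hold down Rpl22l1 RNA. The gene lies at chr3:28805436-28807424 on the plus strand of GRCm38. It had 760, 990 and 738 normalised counts untreated, 1166, 1399 and 1155 at day 4, 912, 938 and 968 at day 11, and 724, 763 and 1056 at day 18. All day 4 samples lay above the other 9. Group means were 829 ± 140, 1240 ± 138, 939 ± 28 and 848 ± 182 (SD, n = 3 each). The log2 change at day 4 was 0.59 ± 0.14 (SE) with an adjusted p of 0.0295 in limma. At day 18 the gene was lower than at day 4 by a log2 change of -0.56 ± 0.14, with an adjusted p of 0.0304 in limma, the 1 call of the 77 in that comparison, where 5.48% of all genes were called and 2.7% lower. It was also the 1 gene of the 77 with no overlap there (9.79% of all genes lay wholly lower), and the 1 gene called by an F-test over the 4 groups (9.47%). Day 11 and day 18 differed from untreated marrow by 0.19 and 0.02, neither called.

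Rpl22 itself had 4201, 5516 and 4274 normalised counts untreated, 5136, 5642 and 4984 at day 4, 5018, 4958 and 4862 at day 11, and 4221, 4412 and 5828 at day 18. It followed the block, with log2 changes of 0.18, 0.10 and 0.04 and no call. The log2 difference Rpl22l1 minus Rpl22, in which a shift common to both genes falls away, was -2.46, -2.48 and -2.53 untreated and -2.14, -2.01 and -2.11 at day 4. It was -2.46, -2.40 and -2.33 at day 11 and -2.54, -2.53 and -2.46 at day 18. The day 4 values stood above all others, by 0.41 on average over untreated marrow. An exact two-sided permutation test gave p = 0.1, the smallest that 3 against 3 samples allow, and 0.333 after Benjamini-Hochberg adjustment over the 10 pairs of relative and parent compared. In this test at day 4, Rpl32l minus Rpl32 and Rpl37rt minus Rpl37 had the same p-values. These differences rose by 0.205 and 0.145 over untreated marrow. Of the 10 pairs, that of Rps19bp1 and Rps19 is no relative and parent. The transcripts of Rpl22l1 and Rpl22 share 75.9% of 286 aligned bases, with no identical stretch over 26 bases.

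**Figure D5:**
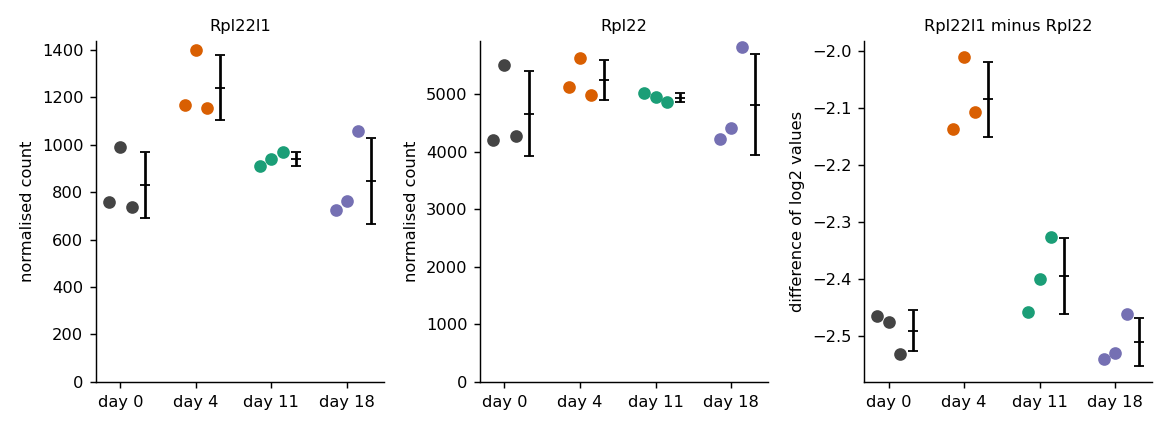
Points are libraries and bars group means with SD (n = 3), for the normalised counts of Rpl22l1 and Rpl22 and for the difference of their log2 values. In Rpl22l1 and in the difference, the 3 day 4 libraries stand above the other 9, and in Rpl22 the groups overlap.

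The call of Rpl22l1 at day 4 was near the threshold. Leaving out untreated replicate 1 or 3 ended it (log2 change 0.53 and 0.51), as did leaving out day 4 replicate 2 or 3 (0.50 and 0.64). It was also lost with the estimated depth as a covariate (0.42, adjusted p 0.49), where limma's adjusted p ranged from 0.00061 to 0.49 over 26 alternatives. Day 4 was the shallowest group by its mean and did not overlap with untreated marrow in estimated depth. What part depth has in this value was not tested. Among the marker lists, 11 DNA replication genes held 0.309 to 0.342% of the normalised total untreated, 0.345 to 0.412% at day 4, then 0.349 to 0.389 and 0.32 to 0.35% on the later days. The erythroid list held 0.127 to 0.222, 0.183 to 0.306, 0.196 to 0.231 and 0.0839 to 0.197% on the same days, and the part of either list in the Rpl22l1 values was not tested. Relative to the median of standard members, Rpl22l1 was at 0.24, 0.40 and 0.23 at day 4 and between -0.18 and 0.06 in the other 9 libraries. The call at day 18 against day 4 ended when day 4 replicate 2 or 3 (-0.47 and -0.61) or day 18 replicate 1 or 2 (-0.46 and -0.50) was left out.

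Some relatives cannot be read as genes of their own. Rps27rt matches Rps27 in all 341 aligned transcript bases, so reads within that stretch fit both, and how the authors' counting shared them is not given in the sources used here. The first 90 bases of the reading frames show this beside Rps27l, a p53 target gene, where capitals mark the 24 bases that differ from Rps27.
Rps27, chromosome 3: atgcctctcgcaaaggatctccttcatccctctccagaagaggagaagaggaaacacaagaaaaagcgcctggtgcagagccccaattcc
Rps27rt, chromosome 9: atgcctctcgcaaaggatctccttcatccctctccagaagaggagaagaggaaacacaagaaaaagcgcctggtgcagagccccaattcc
Rps27l, chromosome 9: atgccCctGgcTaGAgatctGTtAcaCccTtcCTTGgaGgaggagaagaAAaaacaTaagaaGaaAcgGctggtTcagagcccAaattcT
Rps27 had 5872, 9349 and 6832 normalised counts untreated, 7793, 9256 and 7096 at day 4, 6848, 8370 and 5948 at day 11, and 5689, 6443 and 10572 at day 18. Its groups overlapped throughout. Rps27l had 1045, 1254 and 1029 untreated, 1085, 1348 and 1202 at day 4, 1147, 1137 and 1293 at day 11, and 1066, 1143 and 1288 at day 18, a narrower range than Rps27. Rps27rt ranged from 158 to 326 over the 12 libraries. None of these 3 genes was called in any comparison.

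Near-identical copies limit other rows too. Rpl37rt shares 99.7% of its aligned bases with Rpl37, Rps3a2 99.5% and Rps3a3 98.9% with Rps3a1, Rpl6l 98.7% with Rpl6, and Rpl32l 97.5% with Rpl32. Each of these rows is uncertain, and none was called. The rows named as pseudogenes, which the rule left out, summed to 0.896 to 1.05% of the members' sum in every library.

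Rps4l, which shares 79.9% of its aligned bases with Rps4x, ran against the block. It had 186, 156 and 166 normalised counts untreated, 180, 151 and 149 at day 4, 184, 202 and 194 at day 11, and 186, 214 and 112 at day 18. Its lowest value was in day 18 replicate 3, where 76 of the 77 genes were above their mean. Its day 11 samples lay above its day 4 samples, with a log2 difference of 0.28 that was not called.

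The SD over the 12 libraries, in log2 units, was smallest in Rps19bp1 with 0.10, Rpl7a with 0.11 and Rpl13 with 0.11. It was largest in Rpl32l with 0.32, Rps27rt with 0.30 and Rpl22l1 with 0.30. Rpl7a, a large subunit protein, ran from 13398 to 17339 normalised counts. Rpl32l, at 56 to 115, is among the least abundant members, where counting error is larger.

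Other genes of protein synthesis were read the same way, as log2 values relative to each gene's mean. The median of 28 translation factors ran from -0.16 to 0.12 over the 12 libraries, that of 18 other genes with TOP messenger RNAs from -0.21 to 0.15, and that of 6 host genes of small nucleolar RNAs from -0.28 to 0.31, beside -0.23 to 0.29 for the 77. Of the 28 translation factors, 1 was called higher and 0 lower on each treated day, where 4.64, 5.32 and 9.2% of all genes were called, and it was Eif3b, a core subunit of the initiation factor that joins messenger RNA to the small subunit. Eif3b had 4512, 4626 and 5058 normalised counts untreated and 5733, 5742 and 6184 at day 4, and its log2 changes at the 3 days were 0.32, 0.33 and 0.28 with limma adjusted p-values of 0.0209, 0.0132 and 0.0213. The median log2 changes of the 28 were 0.20, 0.18 and 0.16. Many of the 18 other TOP genes are also among the 28 translation factors, so the medians of these lists are not independent. Of the 18 other TOP genes, Npm1, which the biogenesis list also holds, was called higher at day 4, Vim and Hnrnpa1 at day 11 and Vim at day 18, and 0 were called lower, with medians of 0.21, 0.19 and 0.16. None of the 6 host genes was called, and their medians were 0.21, 0.01 and -0.09.

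Of 48 ribosome biogenesis factors, 2, 2 and 1 were called at days 4, 11 and 18, where 4.64, 5.32 and 9.2% of all genes were. Noc4l, needed for the small subunit, was called higher on all 3 days. It had 760, 769 and 779 normalised counts untreated, 893, 1086 and 959 at day 4, 979, 1060 and 1009 at day 11, and 1053, 1037 and 1179 at day 18, with no overlap. Its log2 changes were 0.34, 0.40 and 0.50. Npm1, the nucleolar protein nucleophosmin, was called higher at day 4 with 0.31, and Nop2, an RNA methyltransferase, at day 11 with 0.26. The other biogenesis factors were not called, and the medians of the 48 were 0.14, 0.13 and 0.13. None of 14 RNA polymerase I genes, 6 S6 kinase genes or 11 regulators of ribosome production was called on any treated day against untreated marrow by limma. Rps6kb1, the main S6 kinase gene, ranged from 1531 to 1854.

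Rack1, a small subunit scaffold protein outside the naming rule, ranged from 18715 to 24245, highest in day 18 replicate 3. Rack1 was 1 of 2 tested genes on a list of ribosomal proteins outside the rule. Neither was called, and 1 of the 2 rose at day 4 over untreated marrow, with a median log2 change of -0.003. Of 69 mitochondrial ribosomal protein genes, 1, 0 and 3 were called at days 4, 11 and 18, where 4.64, 5.32 and 9.2% of all genes were. Mrpl33 was called lower at day 4, with 835, 783 and 754 untreated and 556, 544 and 563 at day 4. Its log2 change was -0.51 with a limma adjusted p of 0.00175. It was called higher at day 18 than at day 4 by 0.30, where 5.48% of all genes were called. Mrpl4, Mrps25 and Mrpl42 were called higher at day 18, with log2 changes of 0.25, 0.32 and 0.29, and the median of the 69 was 0.08.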

How the data were processed

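RNA was measured in 12 total bone marrow samples. Per the labels' protocols, a stranded kit for mRNA was used and reads were paired. The submitters' processing notes list limma, featureCounts 1.4.6 of Subread, STAR 2.3.0 and the build GRCm38, without saying which step each served. The deposited values are normalised counts rounded to whole numbers, a score whose scaling is not given in the sources used here. Reads per sample were estimated from gaps among low values, assuming 1 factor per sample (0.792 to 1.3015), and serve only to describe depth and as an alternative covariate.

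Genes with at least 10 in at least 3 samples were kept (14883, with 8251 removed). Values were taken as log2(value + 1), so changes of low genes are understated. Limma 3.58.1 in R 4.3.3 fitted 1 mean per group over all 12 samples with a trend on the mean level (degrees of freedom 8 residual, 5.73 prior). Tests are two-sided, with Benjamini-Hochberg adjustment over all genes tested and a threshold of 0.05. The fit was tested on simulated data. Those had independent genes and no shift shared within a library, so they do not cover genes that move as a block. Exon lengths are GENCODE M21 unions; all 23134 identifiers were found. Promoters are RefSeq. Motifs were searched on the coding strand only. Of 66 pairs of libraries, none had more than 0.928% equal values over 10456 genes with a mean of at least 50.

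The members and all gene lists were chosen with earlier results of these data known. Genes named are the called members, the relatives and their parents, extremes of level and spread, members near the threshold, the stalk genes, Rpsa, and called or set list genes; others are said to be named after their values were seen. Alternatives were other pseudocounts, filters, scalings, covariates, weights, memberships and leaving out each replicate.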

Additional observations from a re-analysis of the deposited data

Results flagged for a closer look

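The changes of Rpl22l1 from untreated marrow differed between days 4 and 18. The comparison of the 2 days is the test of that difference, and it gave a log2 change of -0.563 from day 4 to day 18 with a limma adjusted p of 0.0304. The 3 day 4 samples, at 1155 to 1399 normalised counts, all lay above the 3 day 18 samples, at 724 to 1056. The range of this adjusted p over 26 alternatives was 0.000384 to 0.244. Day 4 was also the shallowest group by its mean, and what part depth has in this was not tested.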

How the results depend on the processing

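No paired analysis was possible because the labels give no replicate numbers that link samples of different groups. Of the counts of ribosomal protein genes called, that at day 4 against untreated marrow (1) became 0 with rescaling by the total without these genes, no intensity trend, estimated depth as a covariate, standard names only or rescaling by the standard ribosomal protein genes; the F-test count (1, against 9.47% of all genes) became 0 under the same settings. The count at day 18 against day 4 (1) became 0 with only the groups compared, no intensity trend, depth as a covariate, standard names only or rescaling by the standard genes. Sample weights gave 1 at day 11 against untreated marrow, 1 at day 11 against day 4, 4 at day 18 against day 4 and 3 in the F-test. Of the 14883 genes in that fit, 1027 were called higher in the first of these, and 387 and 909 lower in the next 2. The main fit called 476, 142 and 402 there. The length measure as a covariate gave 2 at day 11 and 1 at day 18 against untreated marrow, 1 at day 11 against day 4 and 2 in the F-test. That fit called 797 and 1208 of all genes higher in the first 2 of these, and 163 lower between days 11 and 4. No share of all genes stands beside the F-test counts of 3 and 2, so no change is read from them. Fitting only days 11 and 4 gave 1 for that pair, where 177 of all genes were called lower. Without the 2 libraries that stood apart, chosen after seeing these genes, the counts were 50 and 25 at days 4 and 11 against untreated marrow. They were 1 at day 11 against day 4, 28 at day 18 against day 4 and 45 in the F-test, which called 1703 of all 14708 genes tested there. In the first 4 of these comparisons 3.58, 3.52, 1.14 and 4.05% of all genes were called in the same direction. Leaving out 1 replicate gave 0 to 1 at day 4, 0 to 3 at day 18 against day 4 and 0 to 1 in the F-test. The 3 came without day 18 replicate 3, where 526 of all genes were called lower. The F-test count stayed at 1 in only 9 of 27 alternatives. The day 4 median of 0.198 became -0.01 with depth as a covariate and -0.009 with rescaling by the standard genes, which holds them near 0 by construction. It became 0.079 with the length covariate and 0.116 with quantile normalisation. The day 11 median of 0.153 became 0.056 with depth and 0.084 with quantile normalisation, and the day 18 median of 0.084 became 0.019 with depth or sample weights, 0.033 with the total without these genes and 0.004 with quantile normalisation. Between days 18 and 4, -0.116 became 0.036 with depth, 0.019 with the length covariate and -0.199 with sample weights; between days 11 and 4, -0.057 became 0.053 with depth and 0.035 with the length covariate. Leaving out 1 replicate moved the medians against untreated marrow to 0.143 to 0.315 at day 4, 0.089 to 0.26 at day 11 and -0.053 to 0.199 at day 18. Rpl22l1 at day 4 lost its call in 8 of 26 alternatives and kept its direction in all. The cause was not tested where none is named. The length covariate, the rescaling by standard genes and the joint removal were added after seeing the data. At 3 samples per group, small changes are hard to call.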
